A study of Mus musculus with 29 samples.

Results

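Wild-type mice of 12 months were compared with wild-type mice of 6 months in RNA from the caudate nucleus. The comparison holds 10 of the 29 arrays of the series, 5 per age and 1 per mouse, and the arrays were chosen by the genotype and age in their labels. The study followed HdhQ150 mice, in which the CAG repeat of Htt (huntingtin), the gene of Huntington's disease, is lengthened, beside wild-type littermates at 6, 12 and 18 months. All mice were on a mixed background of 129/Ola x C57BL6/J. The labels give the mice compared as wild type and name no treatment. The 6-month group held mice WT-1002 and WT-1004 (male) and WT-1011, WT-1018 and WT-1020 (female), and the 12-month group held mouse WT-454 (male) and WT-461, WT-488, WT-508 and WT-527 (female), and values per mouse are given in this order. For comparison, 4 wild-type females of 18 months and HdhQ150 groups of 5 mice at 6 months and 6 at 12 months were used. Mice of different ages were different animals, so each age difference is one between groups and not a course within an animal. The labels name no dissection, extraction or hybridisation batch, and a batch that followed age cannot be told apart from age.

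The caudate nucleus is part of the striatum, and most of its neurons are projection neurons that use GABA. Those of the direct pathway carry the dopamine receptor Drd1 and those of the indirect pathway carry Drd2. They receive glutamate from axons of the cortex and thalamus, whose cell bodies lie outside the caudate nucleus. RNA from bulk tissue mixes all cell types, and fewer cells of a type cannot be told apart from less RNA per cell.

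Levels are log2 array values, so that a difference of 1 is a 2-fold difference. Differences were fitted with limma on all 29 arrays with a term for sex, and can depart slightly from the difference of the group means. A gene passed the test where its p, adjusted by Benjamini and Hochberg over 19938 genes, was under 0.05. Array medians lay between 6.92 and 6.94 at 6 months and between 6.95 and 7.05 at 12 months, and precision is limited by how many arrays there are. Mouse WT-454 resembled its group least: its array correlated at 0.945 on average with the remaining 12-month arrays, and theirs at 0.975 to 0.978. Values without it are given beside the main counts. The striatal markers Drd1, Drd2, Pde10a and Penk were at 9.69 or above on all 10 arrays. Slc17a7, the vesicular glutamate transporter of cortical neurons, was also at 8.84 or above on all 10.

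Expression differed between the ages in 5121 of 19938 genes (25.7%), of which 2612 (13.1%) were higher at 12 months and 2509 (12.6%) lower. Without mouse WT-454, 1629 genes were higher (8.17%) and 1673 lower (8.39%), 16.6% in all. All 5121 kept the sign of their difference without that mouse. They were chosen on arrays that include the remaining mice, so kept signs were close to fixed in advance. Of those higher 1419 and of those lower 1474 still passed. Most differences were small. Among the higher genes 2108 reached 1.2-fold, 284 reached 1.5-fold and 22 reached 2-fold. Among the lower genes the numbers were 1726, 265 and 28. The arrays of the ages did not overlap in 2652 genes (13.3%), with 1267 higher (6.35%) and 1385 lower (6.95%) at 12 months. The median over all genes was 0.03.

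**Figure D1:**
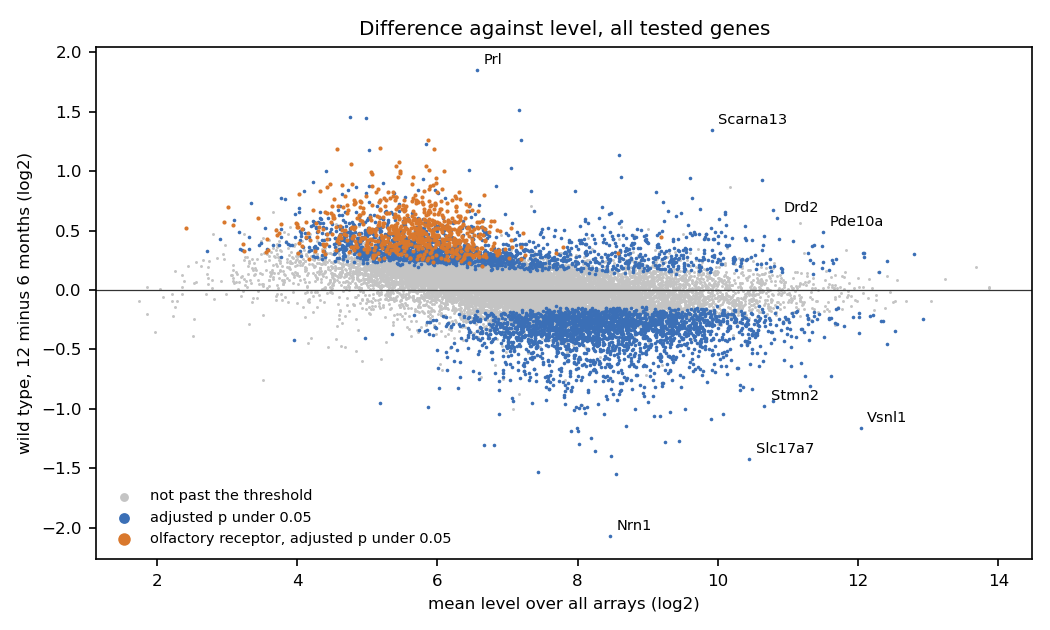
The log2 difference between 12 and 6 months in wild-type mice (vertical) against the mean log2 level over all arrays (horizontal), 1 point per gene. Genes past the threshold are blue, olfactory receptor genes past it are orange and other genes are grey; the higher genes crowd at low levels and the lower genes at middle and high levels.

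The genes with the smallest p among those lower at 12 months included Stmn2, Vsnl1 and Ywhah. Stmn2, a microtubule regulator of growing and regenerating axons, was at 11.08, 10.83, 10.88, 10.97 and 10.90 in the 5 mice of 6 months. At 12 months it was at 9.84, 10.32, 9.81, 9.85 and 10.002, so every 12-month mouse lay below every 6-month mouse. It fell by 0.98 (SE 0.08, limma adjusted p = 2.36e-09), close to 2-fold. Vsnl1, which encodes the neuronal calcium sensor visinin-like 1, was at 12.69, 12.48, 12.81, 12.59 and 12.50 at 6 months and at 11.51, 11.67, 11.26, 11.37 and 11.53 at 12 months. The groups were again apart, and Vsnl1 fell by 1.16 (SE 0.09, adjusted p = 2.36e-09). The adaptor protein gene Ywhah (14-3-3 eta) went from a mean of 11.79 ± 0.06 to 10.98 ± 0.10 (SD, n = 5 each) and fell by 0.81 (adjusted p = 9.05e-08).

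Others in this set act in signalling and secretion. The G protein subunit gene Gng3 fell by 0.64, the A-kinase anchoring gene Sphkap by 1.15, the potassium channel partner Kcnip4 by 0.78 and Pcsk1n, which encodes the neuroendocrine peptide precursor proSAAS, by 0.72. The adjusted p of these 4 ran from 2.03e-07 to 7.85e-07. Genes of general metabolism stood among them too. The glucose phosphatase gene G6pc3 fell by 0.59, the purine synthesis gene Paics by 0.64, the ribonuclease gene Rnasek by 0.52 and Spaca6, known from sperm and egg fusion, by 0.72. Each of these 8 genes passed without mouse WT-454 as well, and in each the arrays of the ages did not overlap. Pdcd4, a repressor of translation, was among the genes with the smallest p without mouse WT-454, where it fell by 1.01, against 1.28 with it.

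The lower genes of greatest size, among those whose arrays did not overlap, were Nrn1, Car10, Slc8a1, Tafa1, Rasgrf2 and Slc17a6. Nrn1 (neuritin), a neurite growth factor with activity-dependent expression, was at 9.21, 9.32, 9.81, 9.39 and 9.51 at 6 months. At 12 months it was at 7.47, 8.74, 6.49, 6.75 and 7.57, a spread of 0.88 (SD) against 0.23 at 6 months. It fell by 2.07 (SE 0.35, adjusted p = 0.000148), or 4.19-fold. Mice WT-488 and WT-508 were lowest and mouse WT-461 was highest among the 12-month mice. The carbonic anhydrase-related gene Car10 fell by 1.55, the sodium-calcium exchanger gene Slc8a1 by 1.39, the secreted-protein gene Tafa1 by 1.35 and the Ras exchange factor gene Rasgrf2 by 1.30.

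**Figure D2:**
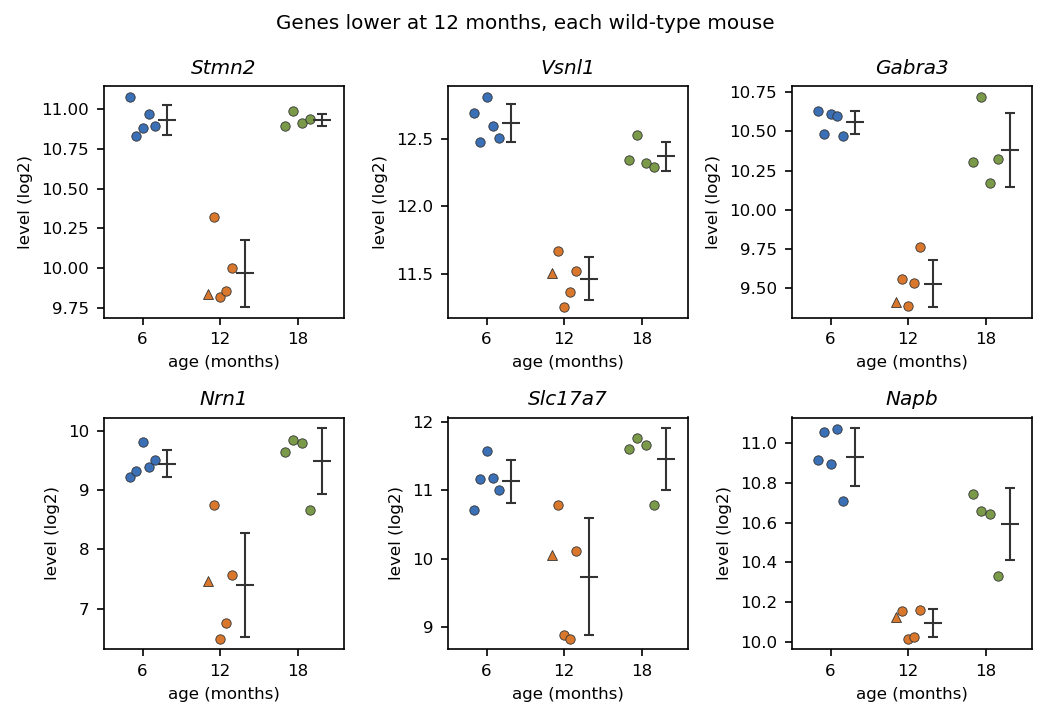
Log2 level of Stmn2, Vsnl1, Gabra3, Nrn1, Slc17a7 and Napb in each wild-type mouse (vertical) by age in months (horizontal), with mouse WT-454 as a triangle and the group mean ± SD as a bar. In 5 of the 6 genes no 12-month mouse reaches the 6-month mice, and Slc17a7 overlaps.

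Promoter sequence is shown for lower genes that hold a short palindrome known as a binding site of a neuronal or growth-related factor. The letters TGACGTCA form the cAMP response element and the letters CACGTG form an E-box; each reads the same on both strands, and they do not overlap. Windows of 250 bases before the start were taken from the RefSeq table (build GRCm38.p6), which held one for 15614 of the 19938 tested genes. TGACGTCA was present in 1.55% of all 32851 windows of the table, in 2.33% of tested genes, in 2.76% of 2030 lower genes with a window and in 0.891% of 2020 higher genes with a window. CACGTG was present in 6.02% of all windows, in 8.11% of tested genes, in 10.2% of lower genes and in 4.8% of higher genes. These shares are a description, and a match of letters is not a site. Printed 5′ to 3′ on the strand of the gene, with the motif in capitals, the windows are those of Ywhah (chr5:33018566-33018815, plus strand), of Cck, the cholecystokinin gene described with the cortical genes (chr9:121495695-121495944, minus strand), and of Paics (chr5:76951052-76951301, plus strand).
Ywhah: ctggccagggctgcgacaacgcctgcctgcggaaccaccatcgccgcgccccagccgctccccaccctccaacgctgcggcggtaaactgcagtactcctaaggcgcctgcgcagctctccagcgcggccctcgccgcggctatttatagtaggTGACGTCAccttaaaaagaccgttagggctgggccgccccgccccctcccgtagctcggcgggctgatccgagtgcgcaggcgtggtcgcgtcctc
Cck: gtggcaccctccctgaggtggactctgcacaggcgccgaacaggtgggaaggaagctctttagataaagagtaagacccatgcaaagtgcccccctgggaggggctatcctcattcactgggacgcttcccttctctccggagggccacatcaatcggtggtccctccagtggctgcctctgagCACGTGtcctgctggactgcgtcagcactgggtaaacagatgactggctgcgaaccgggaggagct
Paics: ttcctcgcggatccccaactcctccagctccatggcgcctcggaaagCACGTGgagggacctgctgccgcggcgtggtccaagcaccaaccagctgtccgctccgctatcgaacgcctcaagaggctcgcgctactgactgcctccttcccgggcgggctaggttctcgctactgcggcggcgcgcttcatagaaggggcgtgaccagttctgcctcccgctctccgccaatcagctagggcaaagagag
The motif of Ywhah runs from base 96 to base 89 before the start, that of Cck from 66 to 61 and that of Paics from 203 to 198.

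Of 16 measured genes known to mark neurons of the cortex 12 fell, none rose and 4 did not pass, with a median of -0.66 against 0.03 over all genes. Of all genes 12.6% were lower. Without mouse WT-454, 11 cortical genes fell. Besides Nrn1 and Rasgrf2, the transcription factor gene Mef2c went from 10.15 ± 0.24 to 9.38 ± 0.14 (SD, n = 5) and fell by 0.77 (adjusted p = 0.000769). The mean of the list per mouse lay between 8.27 and 8.84 at 6 months and between 7.41 and 8.21 at 12 months, so the groups did not overlap.

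Slc17a7 was at 10.71, 11.17, 11.57, 11.18 and 11.01 at 6 months and at 10.06, 10.79, 8.88, 8.84 and 10.12 at 12 months. It fell by 1.42 (SE 0.45, adjusted p = 0.0209), but mouse WT-461 at 12 months lay above mouse WT-1002 at 6 months, and the call was lost when mouse WT-488 or mouse WT-508 was left out. The lowest values again belonged to mice WT-488 and WT-508. The peptide gene Cck, which cortical pyramidal cells also express, fell by 1.27 from 10.08 ± 0.46 to 8.83 ± 0.58 (SD, n = 5, adjusted p = 0.00587). Adcyap1, which encodes the peptide PACAP, fell by 0.70 (adjusted p = 0.000595). Of 25 neuropeptide genes 7 fell and none rose, where 12.6% of all genes were lower. Their median was -0.15, and -0.25 without mouse WT-454. How far the amount of cortical tissue in each sample bears on these values was not tested. With the list's mean per mouse as a covariate, 606 genes were higher and 908 lower, and 1276 of the 5121 genes still passed in the same direction. That mean comes from tested genes and did not overlap between the ages, so it also takes up age. Calls lost with it cannot be assigned to cortical tissue.

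Markers of thalamic neurons moved unevenly. Of 13 members 5 fell and 1 rose, with a median of -0.26, where 12.6% of all genes were lower. Only 2 fell without mouse WT-454 or without mouse WT-1020, and 3 without mouse WT-1002 or without mouse WT-1018. Slc17a6, the vesicular glutamate transporter of thalamic neurons, was at 7.91, 6.64, 6.51, 7.44 and 8.39 at 6 months and at 6.08, 6.27, 6.34, 5.90 and 5.87 at 12 months. It fell by 1.30 (adjusted p = 0.000614). Calb2, the calretinin gene of thalamic and interneuron cells, ranged from 6.73 to 9.45 at 6 months and from 6.49 to 6.98 at 12 months, with mice WT-1002 and WT-1020 highest at 6 months. Its fall of 1.53 (adjusted p = 0.0215) no longer passed when mouse WT-454, WT-1002 or WT-1020 was left out. Ntng1, an axon guidance gene of thalamic neurons, fell by 1.03 (adjusted p = 0.000113) and its groups did not overlap.

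Presynaptic genes were mostly lower at 12 months, where 12.6% of all genes were lower. Of 25 measured members 17 fell and 1 rose (median -0.27), and 17 fell without mouse WT-454. Napb, which helps to take apart the vesicle fusion complex, was at 10.92, 11.05, 10.90, 11.07 and 10.71 at 6 months and at 10.13, 10.15, 10.02, 10.02 and 10.16 at 12 months. It fell by 0.83 (SE 0.09, adjusted p = 8.44e-07). Snap25, a core part of that complex, fell by 0.46 from 12.66 ± 0.11 to 12.20 ± 0.04. The endocytosis gene Amph fell by 0.61 and the vesicle coat gene Syn2 by 0.46, and in all 4 genes the arrays of the ages did not overlap. The list's mean per mouse was 10.13 to 10.28 at 6 months and 9.87 to 10.002 at 12 months. With the cortical list's mean as a covariate, 7 presynaptic genes fell and 1 rose.

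Channels and receptors moved both ways, where 13.1% of all genes were higher and 12.6% lower. Of 44 potassium channel genes 17 fell and 7 rose (median -0.11), and 4 rose without mouse WT-1020. Kcnj3, a G-protein-gated inward rectifier, fell by 1.0, the leak channel gene Kcnk9 by 0.88 and the fast voltage-gated channel gene Kcnc2 by 0.99, with adjusted p from 8.11e-06 to 0.000117. Among 13 GABA receptor genes 4 fell and 1 rose (median -0.25, and -0.13 without mouse WT-1002). Gabra3 was at 10.63, 10.49, 10.61, 10.59 and 10.47 at 6 months and at 9.41, 9.56, 9.39, 9.54 and 9.76 at 12 months, and fell by 1.04 (adjusted p = 2.00e-07). The subunit genes Gabrb2 and Gabra5 each fell by 0.45. Gabrd, the delta subunit of extrasynaptic receptors, rose by 0.51 (adjusted p = 0.000263).

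Of 21 glutamate receptor genes 7 fell and 1 rose, with a median of -0.08, where 12.6% of all genes were lower. The median was -0.02 without mouse WT-454, -0.03 without mouse WT-1002 and -0.15 without mouse WT-1011. The kainate receptor gene Grik1 fell by 0.85 and the NMDA receptor gene Grin3a by 0.53. Grm4, a metabotropic receptor of striatal output terminals, rose by 0.44 (adjusted p = 0.000149). Leaving out mouse WT-454 took the number of rising glutamate receptor genes from 1 to 2.

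**Figure D3:**
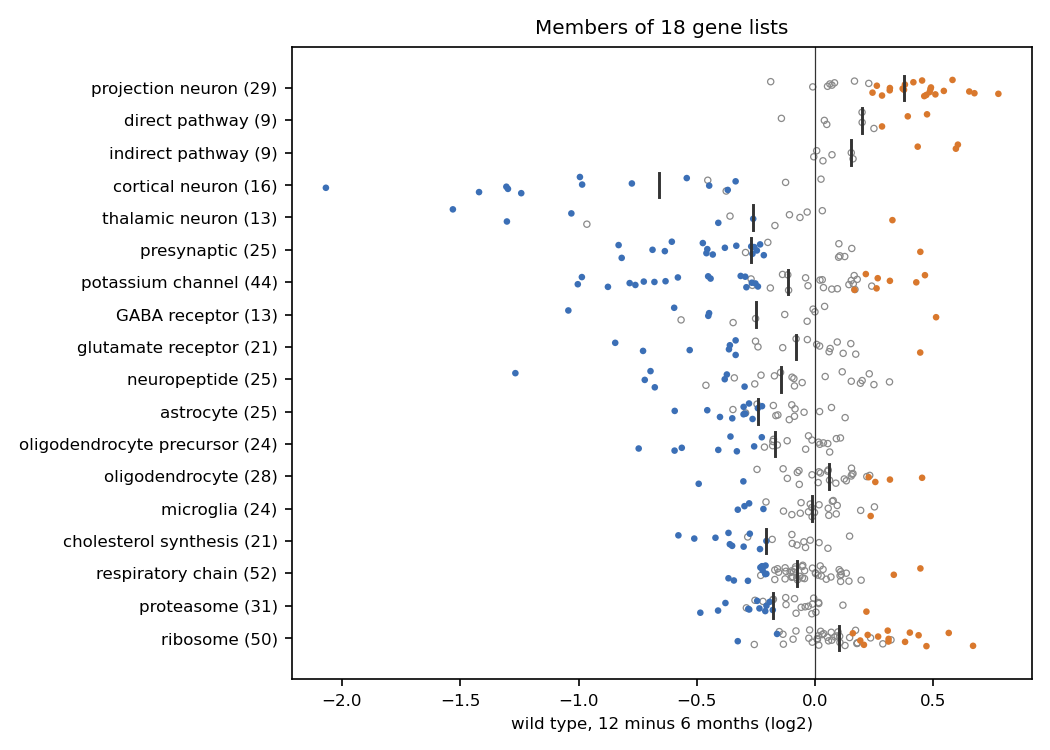
Log2 difference between 12 and 6 months in wild-type mice (horizontal) for each member of 18 gene lists (vertical, with the number measured), members past the threshold in orange (higher) or blue (lower), others as open circles and the list's median as a bar. Cortical, presynaptic and astrocyte genes lie mostly left of 0 and striatal projection neuron genes mostly right of it.

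Of 29 measured genes known to mark striatal projection neurons 21 rose, none fell and 8 did not pass, with a median of 0.38. Of all genes 13.1% were higher. Without mouse WT-454, 17 of the list rose. Ptpn5, the striatal-enriched phosphatase STEP, was at 9.99, 9.98, 10.01, 9.93 and 9.94 at 6 months and at 10.55, 10.51, 10.54, 10.48 and 10.50 at 12 months. It rose by 0.54 (SE 0.06, adjusted p = 2.51e-06) with a spread of 0.03 (SD) in each group. The retinoid receptor genes Rxrg and Rarb, which act in striatal neuron development, rose by 0.77 and 0.65. The striatal phosphodiesterase gene Pde10a rose by 0.49, from 11.61 ± 0.07 to 12.10 ± 0.13 (SD, n = 5).

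The calcium release channel gene Ryr1 was at 7.83, 7.99, 7.87, 7.84 and 7.89 at 6 months and at 8.30, 8.39, 8.38, 8.52 and 8.43 at 12 months. It rose by 0.51 (SE 0.08, adjusted p = 2.98e-05). Ppp1r1b, the dopamine signalling protein DARPP-32, rose by 0.32 (adjusted p = 0.015), which became an adjusted p of 0.057 without mouse WT-454. The groups of both genes did not overlap. The glutathione peroxidase gene Gpx6 rose by 0.49 and the endopeptidase gene Phex by 0.43, and their groups overlapped. The mean of the projection neuron list per mouse was 9.78 to 9.97 at 6 months and 10.12 to 10.28 at 12 months. With the cortical list's mean as a covariate 10 members rose and none fell.

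Both output pathways were represented. Drd1 was at 9.76, 9.95, 9.69, 9.74 and 9.72 at 6 months and at 10.22, 10.15, 10.36, 10.22 and 10.27 at 12 months, and rose by 0.47 (adjusted p = 0.000997). Drd2 was at 10.74, 10.92, 10.74, 10.76 and 10.85 at 6 months and at 11.40, 11.29, 11.53, 11.42 and 11.40 at 12 months, and rose by 0.60 (adjusted p = 8.89e-05). In both receptor genes all 12-month mice lay above all 6-month mice. Of 9 direct pathway genes 3 rose and none fell (median 0.20), where 13.1% of all genes were higher. The transcription factor gene Ebf1 was among those that rose, at 0.39. Of 9 indirect pathway genes 3 rose and none fell (median 0.15, and 0.05 without mouse WT-454), among them the receptor gene Gpr6 at 0.59.

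The peptide genes of these neurons did not pass. Penk differed by 0.15 (adjusted p = 0.208), Tac1 by 0.25 (adjusted p = 0.2) and Pdyn by 0.20 (adjusted p = 0.243). The cannabinoid receptor gene Cnr1 differed by 0.23 (adjusted p = 0.0881), and passed when mouse WT-527 was left out. Htt itself was at 9.14 ± 0.03 and 9.08 ± 0.13 (SD, n = 5, adjusted p = 0.316). Nos1, the nitric oxide synthase of a class of striatal interneurons, rose by 0.38 (adjusted p = 0.00161).

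Of the genes with the smallest p among those higher at 12 months, some were well expressed in the striatum. Sh2d5, an adaptor protein gene, was at 8.98 to 9.18 at 6 months and at 9.40 to 9.66 at 12 months, and rose by 0.50 (adjusted p = 1.57e-06). Cacng4, a regulatory subunit of AMPA receptors and calcium channels, rose by 0.68, from 9.52 ± 0.07 to 10.20 ± 0.07 (SD, n = 5). The RNA-binding protein gene Carhsp1 rose by 0.64. The groups of these 3 genes did not overlap, and all 3 passed without mouse WT-454.

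Prl, the prolactin gene of the pituitary, had the largest rise among higher genes whose arrays did not overlap. It was at 5.77, 5.62, 5.89, 5.77 and 5.67 at 6 months and at 6.36, 7.39, 8.98, 7.62 and 8.63 at 12 months. The 12-month mice had a spread of 1.04 (SD), against 0.10 at 6 months. The fitted rise was 1.85 (SE 0.42, adjusted p = 0.00223). The small RNA genes Snora44 and Scarna13, which guide modification of other RNAs, rose by 1.14 and 1.34. Snora44 was at 7.75 to 7.94 at 6 months and at 8.69 to 9.45 at 12 months.

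**Figure D4:**
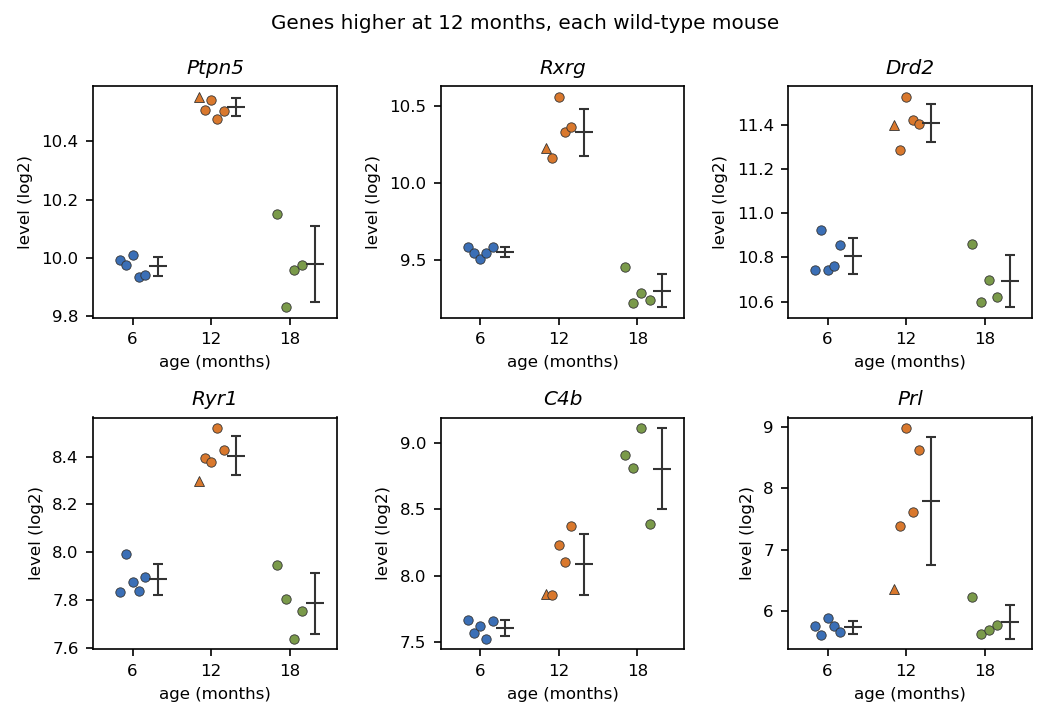
Log2 level of Ptpn5, Rxrg, Drd2, Ryr1, C4b and Prl in each wild-type mouse (vertical) by age in months (horizontal), with mouse WT-454 as a triangle and the group mean ± SD as a bar. In all 6 genes the 12-month mice lie above the 6-month mice, and Prl has the widest spread at 12 months.

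Higher and lower genes differed in how bright they were. Genes were split by mean level into 4 groups of equal size. In the dimmest group 30.9% were higher and 0.662% lower, with a median of 0.20. In the brightest group 7.04% were higher and 27.6% lower, with a median of -0.10. The 2 groups between had 10.4% and 4.05% higher and 4.79% and 17.3% lower. The potassium channel, glutamate receptor, GABA receptor, presynaptic and astrocyte lists had means of 8.5 or above in every wild-type mouse of both ages. So did the oxidative stress, respiratory chain, proteasome, ribosomal protein, clock, heat shock, mature oligodendrocyte, striatal projection neuron, direct pathway and indirect pathway lists. The counts of lower genes in all of these lists are to be read beside the shares of the 2 brighter groups, not beside 12.6% alone. The medians of the dimmest and brightest groups were 0.12 and -0.05 without mouse WT-454. Relative to the median of each array, the split of calls was 1884 higher and 3347 lower, so that 36% of calls were higher, against 51% as deposited.

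Olfactory receptor genes, a family chosen after its values were seen, are known from the nose and were dim in these samples. Of 1027 such genes 707 were higher at 12 months and none was lower, with a median of 0.41, and 0.36 without mouse WT-454. Olfr1489 was at 4.25, 4.24, 4.52, 4.12 and 4.05 at 6 months and at 5.50, 5.33, 5.16, 5.31 and 5.11 at 12 months. It rose by 1.06 (adjusted p = 2.54e-06). Olfr498 rose by 0.95 and Olfr342 by 1.18. Of 167 vomeronasal receptor genes, the pheromone receptors, 99 were higher and none lower, with Vmn1r216 at 0.93, and Adam34, a protease gene of the testis, rose by 0.74.

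The median of the olfactory receptor genes per mouse was 5.27 to 5.48 at 6 months and 5.73 to 5.87 at 12 months. The lower quartile of the whole array moved with it, from 5.85 to 5.92 at 6 months to 5.95 to 6.10 at 12 months, and neither measure overlapped between the ages. The part of background or RNA quality in these values was not tested. With the lower quartile of each array as a covariate, 377 genes were higher and 337 lower, 39 of them higher olfactory receptor genes. Of the 5121 genes 566 still passed in the same direction then. Since the lower quartile did not overlap between the ages, it also takes up age, and lost calls cannot be assigned to background or RNA quality. Of the list counts, 16 striatal projection neuron genes rose in that fit, 1 cortical gene and 4 presynaptic genes fell, and 4 astrocyte genes fell.

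Of 25 measured astrocyte genes 11 fell, none rose and 14 did not pass (median -0.24), and 10 fell without mouse WT-454. The glutamate transporter gene Slc1a3 was at 10.58, 10.52, 10.26, 10.52 and 10.42 at 6 months and at 10.13, 9.87, 10.15, 10.04 and 10.05 at 12 months, and fell by 0.40 (adjusted p = 0.000139). The gap junction genes Gja1 and Gjb6 fell by 0.46 and 0.59. Gfap, the filament gene that rises in reactive astrocytes, was at 8.20 ± 0.18 and 7.85 ± 0.24 (SD, n = 5), and its difference of -0.35 did not pass (adjusted p = 0.0938).

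The metallothionein genes Mt1 and Mt2, which bind zinc and copper, fell by 0.37 and 0.73. Mt2 was at 12.08 to 12.26 at 6 months and at 11.21 to 11.61 at 12 months (adjusted p = 1.37e-05). The transferrin receptor gene Tfrc, which takes up iron, fell by 0.63. These 3 stood in a list of 34 genes of oxidative stress, of which 7 fell and 1 rose (median -0.06). Of all genes 12.6% were lower, and of the 2 brighter groups of genes 17.3% and 27.6%. Without mouse WT-454, 5 fell and 2 rose, and with the array's lower quartile as a covariate 3 fell and 1 rose.

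Of 24 genes of oligodendrocyte precursors and newly formed cells 8 fell and none rose (median -0.17), where 12.6% of all genes were lower. Without mouse WT-1018, 5 fell. Rras2 fell by 0.75, the receptor phosphatase gene Ptprz1 by 0.56 and the matrix gene Tnr by 0.33. Of 28 genes of mature oligodendrocytes 4 rose and 2 fell (median 0.06, and 0.15 without mouse WT-454), where 13.1% of all genes were higher and 12.6% lower. The myelin genes Mbp and Mobp rose by 0.23 and 0.45 and Ndrg1 by 0.32, while Tspan2 fell by 0.49.

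Of 24 microglia genes 4 fell and 1 rose, and of 27 genes of activated microglia 5 rose and 1 fell, where 25.7% of all genes passed. Without mouse WT-454 only 1 fell and none rose in the first list and 1 rose and 1 fell in the second. Without mouse WT-1011, 8 genes of activated microglia rose, and 1 or 2 microglia genes fell without mouse WT-1004, WT-1018 or WT-1020. Fcer1g, an adaptor of immune receptors, fell by 0.30, and the inhibitory receptor gene Lilrb4a rose by 0.48. C4b, a complement gene, was at 7.67, 7.57, 7.62, 7.53 and 7.66 at 6 months and at 7.86, 7.86, 8.24, 8.11 and 8.37 at 12 months. It rose by 0.47 (adjusted p = 0.00122), with no overlap. B2m, the light chain of class I molecules, differed by -0.38 (adjusted p = 0.136), and the antiviral gene Ifitm3 fell by 0.77 (adjusted p = 0.000819).

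Of 21 genes of cholesterol synthesis 10 fell, none rose and 11 did not pass (median -0.21), where 12.6% of all genes were lower. Without mouse WT-454, 7 fell. With the cortical list's mean or the array's lower quartile as a covariate 2 fell. Fdft1, the squalene synthase gene, was at 9.87, 10.01, 9.83, 9.75 and 10.04 at 6 months and at 9.16, 9.39, 9.27, 9.34 and 9.47 at 12 months. It fell by 0.58 (adjusted p = 1.76e-05). Cyp51 and Nsdhl, which act in later steps, fell by 0.37 and 0.36.

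In the respiratory chain 9 of 52 genes fell and 2 rose (median -0.08). Of all genes 12.6% were lower, and of the 2 brighter groups of genes 17.3% and 27.6%. Without mouse WT-454, 6 fell and 3 rose (median -0.05), and with the array's lower quartile as a covariate none fell. Among the members that passed were Ndufv1 of complex I at -0.37, Uqcrc1 of complex III at -0.34 and Cox4i1 of complex IV at 0.44. Of 31 proteasome genes 11 fell and 1 rose (median -0.18). Without mouse WT-454 only 2 fell (median -0.06), and 4 to 7 fell without mouse WT-1002, WT-1004 or WT-1020. Psmb4 fell by 0.38, and Psmd6 by 0.49 with all mice but by 0.30 without mouse WT-454 (adjusted p = 0.055). Of 50 ribosomal protein genes 14 rose and 2 fell (median 0.10), and 15 rose and none fell without mouse WT-454. Of all genes 13.1% were higher, and of the 2 brighter groups 4.05% and 7.04%. Rpsa rose by 0.47 from 9.50 ± 0.09 to 9.96 ± 0.09 (SD, n = 5, adjusted p = 2.79e-05).

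Markers of tissue beside the caudate nucleus varied between mice of 1 age. Ttr, the transthyretin gene of the choroid plexus, was at 12.77, 7.36, 8.74, 7.60 and 12.84 at 6 months and at 10.08, 7.52, 9.82, 9.31 and 9.31 at 12 months. Mice WT-1002 and WT-1020 were far above the others of 6 months, and the difference of -0.63 did not pass (adjusted p = 0.618). Igf2, a growth factor of choroid plexus and meninges, fell by 0.61 (adjusted p = 0.0216), which was lost without mouse WT-1002 or mouse WT-1020. Of 22 choroid plexus genes 1 fell and none rose, where 12.6% of all genes were lower. In that list 4 fell without mouse WT-1004 or without mouse WT-1011, and none without mouse WT-1002 or WT-1020. The list's mean per mouse was 6.45 to 7.57 at 6 months and 6.49 to 7.05 at 12 months. Of 27 genes of meninges and matrix 2 fell (5 without mouse WT-1004 and 4 without mouse WT-1020), and the prostaglandin synthase gene Ptgds fell by 0.94 (adjusted p = 0.00495) with overlap between the ages.

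Of 23 genes of neuroblasts and cell division 3 fell and 1 rose, where 12.6% of all genes were lower and 13.1% higher. Dcx, of migrating neuroblasts, fell by 0.40, Stmn1 by 0.58, and Hmgb2, a chromatin gene of dividing cells, rose by 0.53. Of 19 clock genes 5 fell and none rose, with Bhlhe40 at -0.62, and of 22 immediate early genes 2 rose and 1 fell. Without mouse WT-454 the clock list held 2 genes that rose and 2 that fell, and without mouse WT-1020 only 2 fell. Egr2, an immediate early gene, was at 7.26 to 8.23 at 6 months and at 8.10 to 8.66 at 12 months, and rose by 0.47 (adjusted p = 0.0347). That call was lost when mouse WT-454, WT-508, WT-527, WT-1002 or WT-1004 was left out. None of the immediate early genes passed without mouse WT-454 or without mouse WT-527. The hour of the day at which tissue was taken is not given in the sources used here.

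HdhQ150 mice gave a comparison of the same ages on other arrays. A batch that followed age could be shared by both genotypes, so here too it cannot be told apart from age. In them 2372 genes were higher (11.9%) and 2227 lower (11.2%) at 12 months, 23.1% in all. When each genotype was fitted alone, 3514 genes passed in wild type (17.6%) and 5413 in HdhQ150 (27.1%). Of these, 2430 passed in the same direction in both, which is 69.2% of the wild-type and 44.9% of the HdhQ150 calls, and 1 passed in opposite directions. Across all genes the differences correlated at r = 0.807, where genes are not independent replicates.

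Among the named genes, Vsnl1 fell by 1.17 in HdhQ150 mice, Gabra3 by 1.18, Nrn1 by 2.27, and Slc17a7 fell by 2.44. Ptpn5 rose by 0.32 there, Drd2 by 0.52 and Prl by 1.89. Of the cortical list 14 members fell and none rose, and of the striatal projection neuron list 14 rose and 3 fell. The median of the olfactory receptor genes per mouse was 5.13 to 5.47 at 6 months and 5.58 to 5.95 at 12 months in HdhQ150 mice, with no overlap, as in wild type.

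The difference between the genotypes in the change from 6 to 12 months was tested for every gene. It passed in 1 gene (0.00502%), and 1297 genes had an unadjusted p under 0.05. That gene was Ryr1, which rose by 0.51 in wild type and fell by 0.27 in HdhQ150 mice (adjusted p = 0.0067 there). The changes differed by 0.78 (SE 0.10, adjusted p = 0.00068). Ryr1 belongs to the striatal projection neuron list and is better known as the release channel of skeletal muscle.

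The 18-month wild-type mice show where these genes lay at the next age. Both comparisons share the 12-month arrays, so values are given side by side. Of all genes 759 were higher (3.81%) and 412 lower (2.07%) at 18 than at 12 months, 5.87% in all. From 6 to 18 months 662 were higher (3.32%) and 588 lower (2.95%), 6.27% in all. Stmn2 was at 10.90, 10.99, 10.91 and 10.94 at 18 months, inside its 6-month range. Vsnl1 was at 12.29 to 12.52, Gabra3 at 10.17 to 10.72 and Nrn1 at 8.66 to 9.85, each above all 12-month mice except that the lowest Nrn1 value lay under that of mouse WT-461. Ptpn5 was at 9.83 to 10.15 and Drd2 at 10.60 to 10.86, below all 12-month mice. Prl was at 5.63 to 6.24.

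Other genes were still outside their 6-month ranges at 18 months. Snora44 was at 8.64 to 9.28 at 18 months, Scarna13 at 10.16 to 10.69 and Mt2 at 11.28 to 11.39. C4b was at 8.39 to 9.11, above every 12-month mouse. Gfap, which did not pass between 6 and 12 months, was at 8.28 to 9.19, and its lowest value lay inside the 6-month range. The mean of the cortical list per mouse was 8.34 to 8.97, that of the presynaptic list 10.05 to 10.31 and that of the striatal projection neuron list 9.58 to 9.87. From 12 to 18 months the list medians were 0.76 for cortical, 0.32 for presynaptic and -0.54 for striatal projection neuron genes. The median of the olfactory receptor genes per mouse was 5.55 to 5.89 at 18 months, above the 6-month mice.

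**Figure D5:**
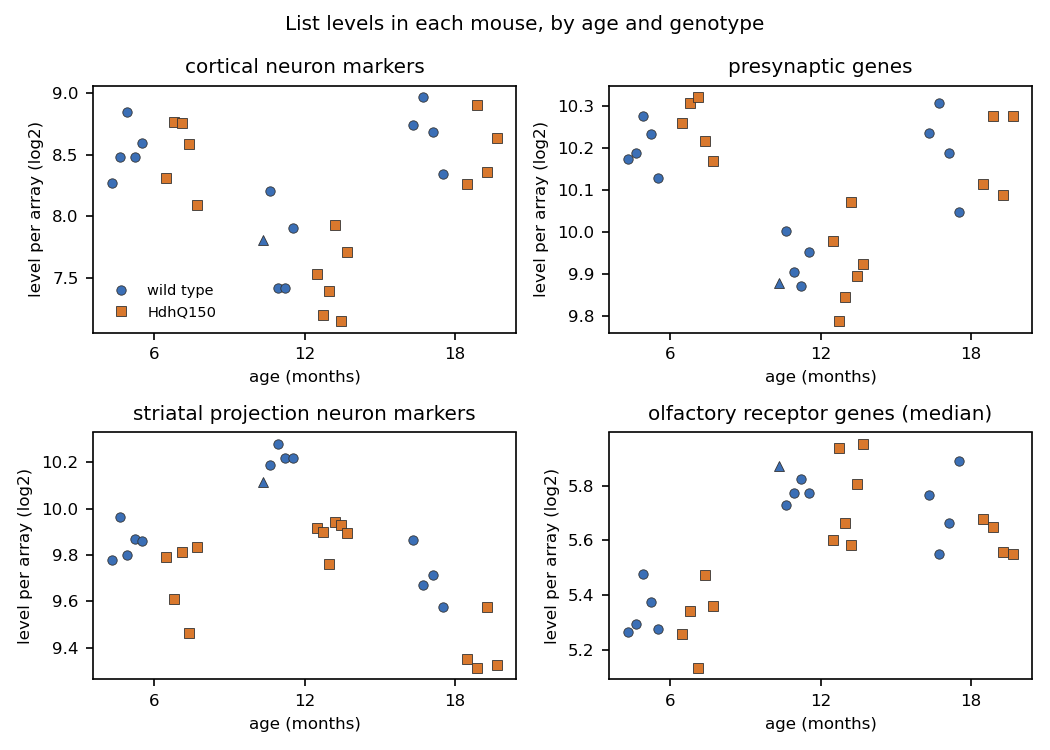
Mean log2 level per array of cortical neuron, presynaptic and striatal projection neuron genes and the median of olfactory receptor genes (vertical) by age in months (horizontal), with wild type in blue circles, mouse WT-454 as a triangle and HdhQ150 mice in orange squares. In wild type the 12-month mice lie apart from the 6-month mice in all 4 panels, lower in cortical and presynaptic genes and higher in the other 2.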

How the data were processed

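Caudate RNA was prepared by a TRIzol-chloroform method (labels' protocols). The authors deposited log2 levels; the submitters' processing notes name RMA and Affymetrix Expression Console without versions. As a rule RMA makes the value distributions of arrays alike, so a shift of dim genes is relative to the other genes. Of 35556 probe sets, those with 1 gene symbol were kept, named through the RefSeq table of assembly GRCm38.p6, with the brightest probe set of each gene, giving 19938 genes. The fit used lmFit and eBayes (trend) of limma 3.58.1, under R 4.3.3, on 29 arrays with 6 group means and sex, two-sided, with Benjamini-Hochberg adjustment at 0.05.

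The text names, in each direction, the 12 genes with the smallest p, the 6 largest with no overlap of arrays, the 10 with the smallest p without mouse WT-454, a fixed set, and up to 4 members of each of 37 lists. Some of these, mostly further olfactory receptor genes, are left out of the text, and predicted genes were skipped. The groups, lists and named genes were chosen with earlier results of these data known. The script was tested on simulated data with 200 changed genes: 38.8%, 74.6% and 100% were recovered at log2 sizes of 0.3, 0.5 and 1, with 12 false calls. The simulated noise was independent between genes, with no outlying array and no shift of dim genes. These figures check the script and need not hold for the real arrays. Replicates are separate animals by their numbers in the labels.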

Additional observations from a re-analysis of the deposited data

Results flagged for a closer look

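A value was singled out where 1 mouse of a group of 5 lay farther from its nearest neighbour than Dixon's 95% limit of 0.71 of the group's range. Of 206 groups of values tested (103 named genes at both ages) 12 did so, and chance gives about 1 in 20.

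In 7 of the 12 the mouse was WT-454. It was highest of the 12-month mice in Pcsk1n (11.10) and Pdyn (8.60). It was lowest of them in Kcnip4 (8.48), Pdcd4 (7.85), Gabrb2 (9.76), Psmd6 (7.12) and Vmn1r216 (5.60). Mouse WT-461 of 12 months was highest in Gpx6 (8.58) and lowest in Igf2 (7.79). At 6 months mouse WT-1004 was highest in Drd1 (9.95), mouse WT-1020 lowest in Uqcrc1 (9.96) and mouse WT-1011 lowest in Dcx (8.18).

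The change from 6 to 12 months differed between the genotypes in Ryr1, by 0.78 (SE 0.10, limma adjusted p = 0.00068), with a rise in wild type and a fall in HdhQ150 mice.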

How the results depend on the processing

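Of the 5121 genes, 2893 (without mouse WT-454) to 4816 still passed when any 1 mouse was left out. All kept the sign of their difference, which their choice on these same arrays had nearly fixed. Leaving out 1 mouse at a time gave 1629 to 3489 higher and 1673 to 3032 lower genes, and 1 or 2 genes whose change differed between genotypes. The arrays did not overlap in 2866 to 4039 genes then (most without mouse WT-1011), against 2652 with all mice. Leaving out a mouse can only keep or raise that number, so its direction was fixed in advance. Over all 103 named genes and all settings, 100 values lost the call, 6 gained it, 8 changed sign and 2549 kept sign and call.

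The number of higher genes was 579 among the brighter 50% of genes, 1672 in the 10 wild-type arrays alone, 1155 in females alone (1279 lower), 4153 over all probe sets and 1688 without mice WT-454 and HdhQ150-1023. With quantile normalization 1815 genes were higher and 2137 lower. Of the 5121 genes, 3452 still passed in the same direction with quantile normalization, 3407 in the 10 wild-type arrays alone and 2159 in females alone. Mouse HdhQ150-1023 is a 6-month HdhQ150 mouse whose sex genes did not match its label. Genes without overlap numbered 1584 in the brighter 50%, 4517 in females alone and 4280 over all probe sets. With fewer mice, as in females alone, that number can only stay or rise. For HdhQ150 mice the number of higher genes was 1565 with arrays centred on their medians, 1458 with quantile normalization, 588 in the brighter 50%, 1504 in females alone, 4004 with array weights and 4083 over all probe sets. The change differed between genotypes in 2 genes without mice WT-454 and HdhQ150-1023. By construction the brighter 50% holds fewer genes, females alone fewer mice and the set of all probe sets more features; the cause of the other moves was not tested.

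Of the alternatives, 2 were chosen after seeing the data. Both are covariates whose values did not overlap between the wild-type ages, so each also takes up age. With the cortical list's mean as a covariate 606 genes were higher and 908 lower in wild type, and 69 and 205 in HdhQ150 mice; Slc17a7 was then at 0.46, Cck at 0.26, Penk at -0.067 and Tac1 at -0.17. With the array's lower quartile as a covariate the counts were 377 and 337 in wild type and 443 and 387 in HdhQ150 mice, Htt was at 0.00998 and B2m at 0.052. Leaving out 1 mouse moved Ttr between -1.27 (without WT-1018) and 0.24 (without WT-1020), with 0.05 without WT-1002. No paired analysis was possible because the ages hold different animals whose numbers in the labels do not match. Signal over background is unknown here, since the files give no detection call.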

Other observations

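The remaining gene lists were counted between 6 and 12 months in wild-type mice, where 25.7% of all genes passed. Of 15 striatal interneuron genes 1 rose and 2 fell (median 0.04, and -0.10 with 1 fall without mouse WT-454), and of 13 septal and pallidal genes 3 fell (median -0.17, and -0.26 with 1 fall without mouse WT-454). Of 18 ependyma genes 1 fell and of 28 vessel genes 2 fell, and none of either did so without mouse WT-454. Of 19 antigen presentation and complement genes 2 rose, and of 28 interferon response genes 1 rose and 2 fell (medians 0.05 and 0.10). Without mouse WT-454 those medians were -0.03 and 0.01 and no interferon response gene rose, while 3 rose without mouse WT-461 or WT-1018. Of 3 blood markers 2 rose, and none without mouse WT-454. Of 18 glucocorticoid response genes 2 rose and 1 fell, of 25 heat shock genes 2 rose and 3 fell, of 18 genes of p53 response and senescence 1 rose and 2 fell, and of 22 protocadherin genes 1 rose (2 without mouse WT-454). None of 4 sex chromosome genes passed.

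Of 51 small nucleolar RNA genes, Snora44 among them, 8 were higher (15.7%) and 2 lower (3.92%), with a median of 0.07. Of 300 microRNA genes 35 were higher (11.7%) and 10 lower (3.33%), with a median of 0.12, and of 0.05 without mouse WT-454. Of all genes 13.1% were higher and 12.6% lower, and of the dimmest and second dimmest groups 30.9% and 10.4% were higher.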
